A study of Mus musculus with 9 samples.

Results

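The genes described here are the iron handling genes Heph, Steap4 and Lcn2 together with the other iron genes found by the same rule: Tfrc, Fth1, Ftl1, Ireb2, Aco1, Cp, Hamp and every gene whose symbol begins with Steap. The rule was applied to the 8742 genes that the authors' 3 deposited tables of called genes hold between them, and it found 11 genes. Cp and Hamp have no row in these tables. Counts in all 9 libraries were at hand for 9 of the 11, while Tfrc and Steap3 have values only for PCN and PN, because the table of PCN against PN alone lists them. Apart from their names, the members were chosen by the authors' adjusted p under 0.05 in at least 1 comparison of these same libraries, so the differences of the members are given as a description, with no test.

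The libraries were made from mouse organoids of esophageal epithelium, cultures in which epithelial cells grow as small rounded bodies, collected on day 7 after seeding. The 9 libraries form 3 groups of 3. The genotype of PCN organoids is labelled Trp53;Cdkn2a;Notch1 KO, that of PN organoids Trp53;Notch1 KO, and the third group, WT, is labelled wild type, with no treatment in any group. The labels do not say whether replicates came from separate cultures, clones or animals, nor the strain or the kind of edit, so the spread between replicates may be technical.

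Cells take up iron bound to transferrin through the transferrin receptor, reduce it inside endosomes with metalloreductases of the Steap family, store it in ferritin and pass it out through ferroportin, after which a ferroxidase such as hephaestin oxidises it. A pair of RNA-binding proteins, encoded by Aco1 and Ireb2, sense iron by binding a short hairpin, the iron-responsive element: at the start of a ferritin mRNA this blocks translation, and in the tail of the transferrin receptor mRNA it protects the transcript from decay. Lipocalin-2, the product of Lcn2, binds bacterial siderophores and is known as an epithelial and neutrophil defence protein that inflammatory cytokines induce.

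The hairpin letters are shown first. A match in letters alone does not show that a gene belongs to this post-transcriptional circuit, and a strict pattern can miss elements. Whole protein-coding transcripts in GENCODE M21 (GRCm38), coding parts included, were searched for a C, any 5 bases, the loop CAGTGN and 5 more bases able to pair with the first 5. The letters were found in 3 of the 11 members and in 1.34% of 21901 genes. The ferritin heavy chain Fth1 and the ferritin light chain Ftl1 each hold 1 such hairpin near the start of the transcript, and Tfrc holds 4 in its 3′ UTR. Capitals mark the loop in these windows of 30 bases, read 5′ to 3′ along the transcript:
Fth1 5′ UTR, chr19:9982732-9982761, plus strand: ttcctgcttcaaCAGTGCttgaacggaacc
Ftl1 5′ UTR, chr7:45459778-45459807, minus strand: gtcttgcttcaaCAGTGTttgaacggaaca
Tfrc 3′ UTR, chr16:32631219-32631248, plus strand: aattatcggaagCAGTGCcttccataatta
Tfrc 3′ UTR, chr16:32631598-32631627, plus strand: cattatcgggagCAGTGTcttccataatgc
Tfrc 3′ UTR, chr16:32631663-32631692, plus strand: ctatatcggagaCAGTGAtctccatatgtt
Tfrc 3′ UTR, chr16:32631710-32631739, plus strand: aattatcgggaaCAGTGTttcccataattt
These data measure RNA abundance, so translation of ferritin through the hairpin was not measured.

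Recovered library totals were 17422590 to 20198041 counts in libraries labelled PCN, 16857744 to 18912526 in PN and 14695420 to 15093994 in WT. Trp53 averaged 3.07, 2.61 and 120 CPM (counts scaled to the library total) in PCN, PN and WT, and Notch1 averaged 71.3, 148 and 244 CPM. Cdkn2a RNA averaged 65.2, 22.1 and 9.0 CPM in PCN, PN and WT, which goes against a simple loss of the transcript in the group labelled as its knockout, so the organoids are called "labelled PCN" here. All 9 esophageal epithelial markers checked have values, and the summed level of the 8 with counts everywhere was 11023 to 11371 CPM in libraries labelled PCN, 9394 to 9793 in PN and 32384 to 34216 in WT. That sum is dominated by the differentiation keratins Krt13, at 2791, 2099 and 15876 CPM, and Krt4, at 2206, 2501 and 11382 CPM in PCN, PN and WT. The basal markers Krt15, at 1644, 731 and 300 CPM, and Trp63, at 649, 698 and 486 CPM, were lowest in WT. The basal keratin Krt14 averaged 2433, 1965 and 1959 CPM, with PN and WT overlapping, and Krt5 has no values in WT. Of the other markers, Krt6a averaged 708, 772 and 1903 CPM and Cdh1 432, 473 and 813 CPM in PCN, PN and WT. Epcam averaged 289, 363 and 367 CPM. In bulk RNA, fewer cells of a type and less RNA per cell cannot be told apart. Each table was normalized on its own by the authors, and the groups of the 3 comparisons overlap: PN against WT and PCN against WT share the WT libraries.

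In PN against WT, 7 members were listed by the authors, 6 higher and 1 lower, beside 38.1% of the 17165 genes tested. In organoids labelled PCN against WT, 8 members were listed, 6 higher and 2 lower, beside 38.6% of 17300 genes. In organoids labelled PCN against PN, 10 members were listed, 4 higher and 6 lower, beside 24.5% of 14758 genes. In each comparison the libraries of the groups did not overlap for any listed member, as for 98.6%, 98.2% and 97.8% of all genes listed in PN against WT, in PCN against WT and in PCN against PN. Since listing is how the members were chosen, nothing is read from these shares. The authors' deposited table puts Lcn2 in PN against WT nearest to the threshold of 0.05, with an adjusted p of 0.0203, followed by Ireb2 in PCN against WT at 0.0101 and Steap3 in PCN against PN at 0.00956. Not listed, among members with counts in all 9 libraries, were Steap4 and Ftl1 in PN against WT, Steap2 in PCN against WT and Ireb2 in PCN against PN. Tfrc and Steap3 were not listed in PN against WT or in PCN against WT.

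Heph, which encodes hephaestin, a membrane-bound multicopper ferroxidase known for iron export from enterocytes, had the largest difference of the members in PN against WT. The gene lies on chrX:96455359-96574485 (plus strand, GRCm38, ENSMUSG00000031209). It had 85.1, 81.6 and 79.7 CPM in libraries labelled PCN, 123.1, 127 and 135 CPM in PN, and 2.00, 2.04 and 2.65 CPM in WT. All 6 edited libraries lay far above the 3 WT libraries, and the libraries labelled PCN lay below PN. The fitted log2 fold change was 5.85 (SE 0.12) in PN against WT, 5.20 (SE 0.12) in PCN against WT and -0.65 (SE 0.05) in PCN against PN. As ratios of summed counts these were 57.6, 36.8 and 0.639, resting on 4625 counts labelled PCN, 6792 in PN and 100 in WT. The first 936 bases of Heph overlap Hsf3 on the opposite strand, and 2 processed pseudogenes, Rpl17-ps8 and Gm14935, lie within the locus. Whether the counting used strand is not given in the sources used here, so reads of these genes could not be told apart from those of Heph where they overlap. Hsf3 itself had 0.126 ± 0.0400 CPM in libraries labelled PCN, 0.686 ± 0.0946 in PN and 0 in WT (SD, n = 3 each). Ferroportin, Slc40a1, the exporter that hephaestin works with, was named after its values were seen. It was listed in PCN against PN alone, with 0.0865 ± 0.0537 CPM in libraries labelled PCN and 0.621 ± 0.107 CPM in PN (SD, n = 3 each), levels that rest on few counts.

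**Figure D1:**
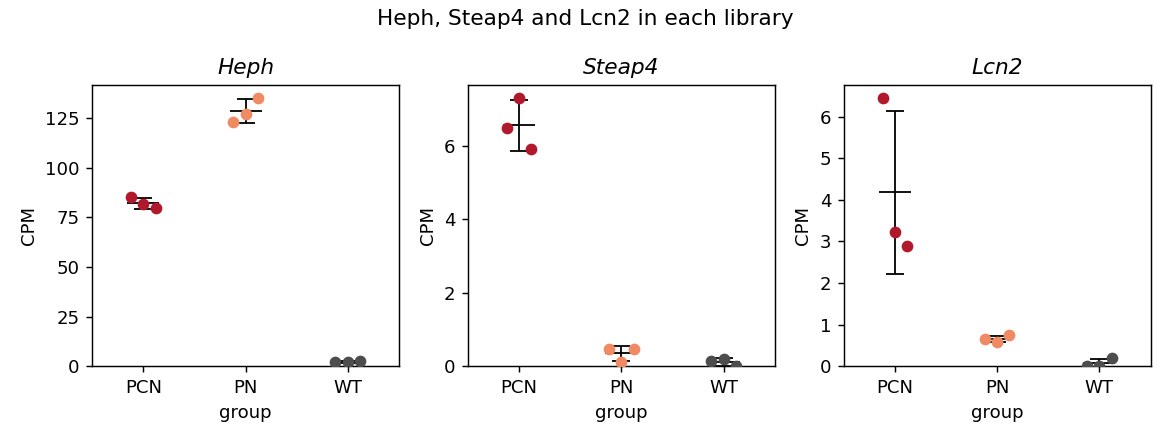
Levels of Heph, Steap4 and Lcn2 in CPM (linear axis from 0) in each library of the groups PCN, PN and WT. Points are libraries, the long bar is the mean and the error bar 1 SD (n = 3). Heph was high in PN and in PCN, while Steap4 and Lcn2 were high in PCN.

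The Steap genes did not move together. Steap1 and Steap2 were highest in PN, whereas Steap4 was highest in organoids labelled PCN. Steap3 was higher in organoids labelled PCN than in PN, and its level in WT is not known here. Steap4, a plasma membrane and endosomal metalloreductase for iron and copper that is known to be induced by inflammatory cytokines, lies on chr5:7960457-7982213 (plus strand, ENSMUSG00000012428). It had 6.49, 7.29 and 5.91 CPM in libraries labelled PCN, 0.475, 0.118 and 0.476 CPM in PN, and 0.134, 0.204 and 0 CPM in WT. These levels rest on 131, 127 and 110 counts labelled PCN, 8, 2 and 9 in PN, and 2, 3 and 0 in WT. The libraries labelled PCN stood apart from the rest, and PN and WT overlapped. The ratio of summed counts was 18.2 in PCN against PN, with an exact 95% counting interval of 11.5 to 30.5, and the fitted log2 fold change was 4.16 (SE 0.30). Against WT it was 58.6 for PCN, with an interval of 24.9 to 181, and 3.22 for PN, with an interval of 1.16 to 11.0. The few WT counts limit both: without WT replicate 2 the ratios were 98.4 for PCN and 5.41 for PN, and without WT replicate 3 they were 38.8 and 2.14.

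Steap1, a family member that lacks the oxidoreductase domain of its relatives, and Steap2, a metalloreductase, lie next to each other on chromosome 5 (Steap1 at chr5:5736317-5749326 and Steap2 at chr5:5664829-5694578, both minus strand). Steap1 had 5.89, 5.97 and 7.46 CPM in libraries labelled PCN, 13.3, 13.1 and 12.8 CPM in PN, and 4.41, 2.45 and 2.05 CPM in WT. PN stood above both other groups, and organoids labelled PCN stood above WT. The log2 fold change was 2.15 (SE 0.23) in PN against WT, 1.12 (SE 0.27) in PCN against WT and -1.02 (SE 0.13) in PCN against PN. Steap2 had 36.2, 32.0 and 30.3 CPM in libraries labelled PCN, 57.7, 56.5 and 55.7 CPM in PN, and 34.7, 33.5 and 38.0 CPM in WT. Libraries labelled PCN and WT overlapped, with a log2 fold change of -0.11 (SE 0.10) that the authors did not list. PN was higher than WT by 0.69 (SE 0.08), and PCN against PN gave -0.79 (SE 0.07). Steap3, the endosomal ferrireductase of erythroid cells (chr1:120190757-120272705, minus strand), had 1.88, 1.32 and 1.29 CPM in libraries labelled PCN and 0.356, 0.353 and 0.634 CPM in PN. Its log2 fold change was 1.71 (SE 0.39) in PCN against PN.

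On the FPKM scale, which allows for transcript length, Steap1, Steap2 and Steap4 summed to 9.46 ± 0.283 in libraries labelled PCN, 14.3 ± 0.263 in PN and 5.11 ± 0.860 in WT (SD, n = 3 each). The groups did not overlap in this sum. Steap4 made up 22.0% ± 2.89 of it in libraries labelled PCN, 0.790% ± 0.458 in PN and 0.699% ± 0.702 in WT. Steap1 made up 49.3% ± 5.25, 66.5% ± 0.453 and 41.1% ± 10.3 in PCN, PN and WT, and Steap2 made up 28.6% ± 3.28, 32.7% ± 0.0234 and 58.2% ± 10.6. WT replicate 1 had the highest Steap1 share of its group, 52.4%, against 38.6% and 32.3% in the other WT libraries.

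**Figure D2:**
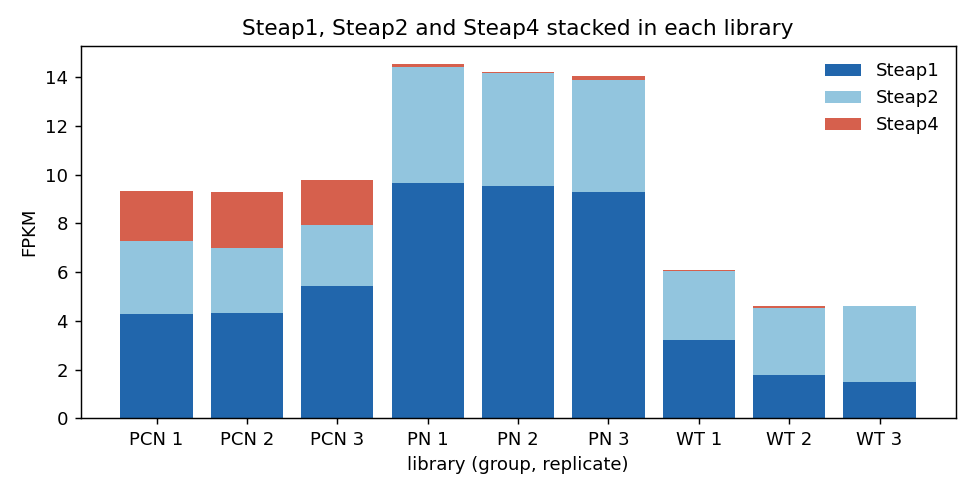
FPKM (linear axis from 0) of Steap1, Steap2 and Steap4, stacked, in each of the 9 libraries by group and replicate. The stack was tallest in PN, 14.0 to 14.6 FPKM, and Steap4 formed a visible share, 19.1% to 24.9%, in libraries labelled PCN.

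Lcn2 lies on chr2:32384633-32388252 (minus strand, ENSMUSG00000026822). It had 6.44, 3.21 and 2.90 CPM in libraries labelled PCN, 0.653, 0.589 and 0.740 CPM in PN, and 0, 0 and 0.199 CPM in WT. The counts behind these are 130, 56 and 54 labelled PCN, 11, 10 and 14 in PN, and 0, 0 and 3 in WT. The groups did not overlap, and replicate 1 of PCN was about as far above its fellows as they were above 0. The ratio of summed counts was 6.43 in PCN against PN, with an exact 95% counting interval of 4.50 to 9.45, and 4.60 without PCN replicate 1. The fitted log2 fold change in PCN against PN was 2.66 (SE 0.34). Against WT, where only 1 library had any count, the ratio was 63.7 for PCN, with an interval of 21.5 to 311, and 9.90 for PN, with an interval of 3.12 to 50.3. Without WT replicate 3, the library with counts, Lcn2 was at least 42.2-fold higher in PCN and at least 6.56-fold higher in PN, against a floor of 3 counts over the remaining WT libraries. Without WT replicate 1 the ratios were 42.4 and 6.59 for PCN and PN, and without WT replicate 2 they were 42.8 and 6.65. Counting intervals and floors cover counting error only. Slc22a17, a receptor for lipocalin-2 that was named after its values were seen, was listed higher in PCN against PN, with 12.3 ± 1.92 CPM in libraries labelled PCN and 5.21 ± 1.52 CPM in PN (SD, n = 3 each).

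Neutrophils also express Lcn2, and 1 of 8 neutrophil markers has values, Cxcr2. It averaged 4.45 ± 0.274 CPM in libraries labelled PCN, 9.63 ± 1.42 in PN and 30.6 ± 3.74 in WT (SD, n = 3 each). The other 7, among them Ly6g, Elane, Mpo, Camp and Ngp, have no row, so their levels are not known here. Of 7 leukocyte and macrophage markers, Cd68 alone has values, 16.1 ± 0.970, 25.2 ± 1.61 and 107 ± 12.8 CPM in PCN, PN and WT. For enterocytes, the best known site of Heph, 2 of 6 markers have values. Vil1 averaged 0.0523, 0.0964 and 0.623 CPM in PCN, PN and WT, resting on 3, 5 and 28 counts. Fabp2 averaged 0, 0.0767 and 4.68 CPM, resting on 0, 4 and 209 counts. The other enterocyte markers have no row, so their levels are not known here. Adipocytes, which express Steap4, have 1 of 5 markers with values, Fabp4, at 1.02, 0.833 and 3.72 CPM in PCN, PN and WT. No marker of 6 for fibroblasts or of 4 for endothelium has a row. The part of other cell types in the levels of the members was not tested.

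Stretches of the promoters of Steap4 and Lcn2, the members highest in organoids labelled PCN by the widest margin, are shown with the motifs found in them, since cytokine-responsive genes often carry binding letters for C/EBP and NF-kB factors. The 250 bases before the RefSeq start (GRCm38.p6) were searched on both strands for the C/EBP core TTGCNNAA and the NF-kB consensus. Of the 11 members, 10 have a promoter entry, the exception being Heph. Among the members, matches were looked up for Steap4 and Lcn2 alone. Whether the other members hold these letters is not given here, so nothing particular to Steap4 and Lcn2 is read from them. The C/EBP core is present in 9.55% and the NF-kB consensus in 3.75% of 27025 mouse promoters of the same length. Steap4 holds 1 C/EBP core, and 2 NF-kB matches that read on the minus strand, and Lcn2 holds 1 C/EBP core and no NF-kB match in this window. Capitals mark the matched letters, read 5′ to 3′ along each gene:
Steap4, -250 to -201, chr5:7960222-7960271, plus strand: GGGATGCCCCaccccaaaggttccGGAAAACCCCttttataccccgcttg
Steap4, -98 to -69, chr5:7960374-7960403, plus strand: cacagctcctcTTGCGAAAtcaagcgggcc
Lcn2, -227 to -198, chr2:32387937-32387966, minus strand: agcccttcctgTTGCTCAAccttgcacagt
The Lcn2 stretch lies inside the gene span chr2:32384633-32388252 given above, because the RefSeq start lies within that span. The Lcn2 window is therefore not upstream of the start of that span. A match in letters is a description of the sequence and not a binding site measured in these organoids.

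The transferrin receptor Tfrc (chr16:32608920-32632794, plus strand) takes up transferrin-bound iron. It had 211, 209 and 192 CPM in libraries labelled PCN and 262, 245 and 262 CPM in PN. The groups did not overlap, and the log2 fold change was -0.33 (SE 0.05) in PCN against PN. Its level in WT is not known here.

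**Figure D3:**
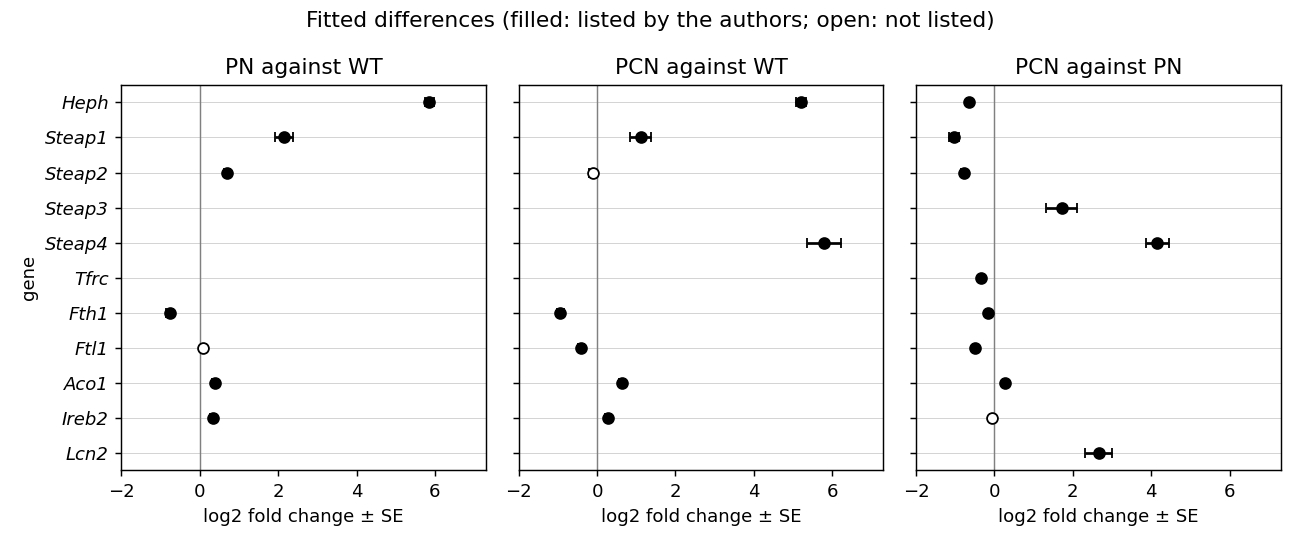
Fitted log2 fold change (horizontal axis, points, with bars of 1 SE) of each member in PN against WT, in PCN against WT and in PCN against PN. Filled points were listed by the authors and open points were not. A gene without a point was not fitted in that pair, or, for Lcn2 in PCN against WT, had 3 WT counts and is given as a ratio of counts. Heph lies at 5.85 and 5.20 against WT, and Steap4 at 5.79 in PCN against WT.

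Both ferritin subunits were abundant, and they did not change in parallel. Fth1, whose heavy chain oxidises iron for storage (chr19:9982703-9985092, plus strand), had 1162, 1206 and 1148 CPM in libraries labelled PCN, 1294, 1306 and 1339 CPM in PN, and 2426, 2379 and 1957 CPM in WT. All edited libraries lay below the lowest WT library, and those labelled PCN lay below PN. The log2 fold change was -0.77 (SE 0.08) in PN against WT, -0.94 (SE 0.09) in PCN against WT and -0.16 (SE 0.04) in PCN against PN. Ftl1, whose light chain helps form the mineral core (chr7:45457944-45459884, minus strand), had 561, 653 and 639 CPM in libraries labelled PCN, 872, 871 and 867 CPM in PN, and 817, 856 and 802 CPM in WT. Organoids labelled PCN were the lowest group, and PN stood slightly above WT without being listed. The log2 fold change was 0.09 (SE 0.06) in PN against WT, -0.41 (SE 0.08) in PCN against WT and -0.50 (SE 0.05) in PCN against PN. Together the 2 genes took 0.179% ± 0.00678 of counts in libraries labelled PCN, 0.218% ± 0.00205 in PN and 0.308% ± 0.0277 in WT (SD, n = 3 each). The ratio of Fth1 to Ftl1 on the FPKM scale was 2.95 ± 0.227 in libraries labelled PCN, 2.34 ± 0.0497 in PN and 4.23 ± 0.415 in WT. Ferritin genes have processed pseudogenes whose reads can be shared, so the split between copies is uncertain. The relative Ftl1-ps1 was listed in PCN against PN with 8.34 ± 0.544 CPM labelled PCN and 12.3 ± 1.30 CPM in PN.

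**Figure D4:**
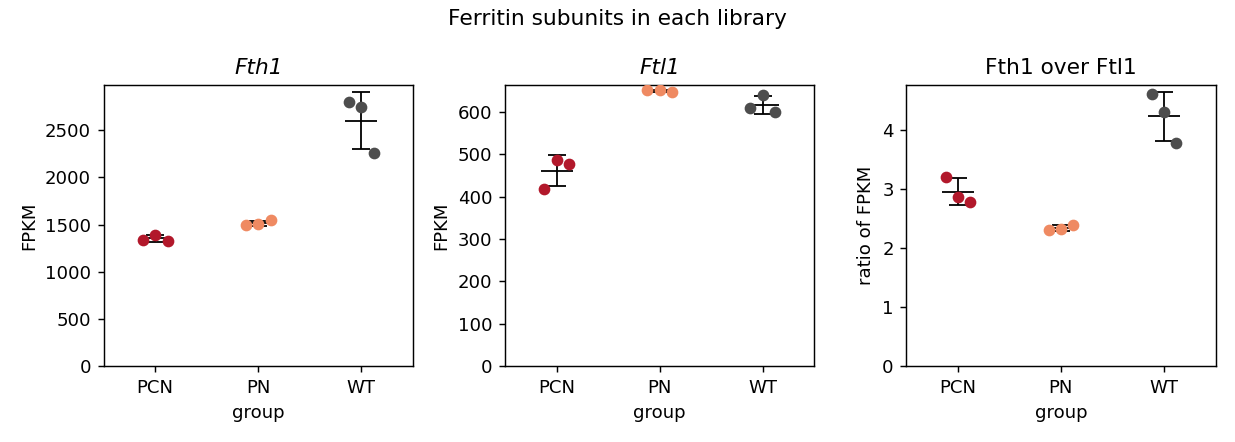
FPKM of Fth1 and Ftl1, and the ratio of the first to the second, in each library of PCN, PN and WT (linear axes from 0; points are libraries, bars mean and 1 SD, n = 3). Fth1 was highest in WT, Ftl1 lowest in PCN, and the ratio lowest in PN at 2.34.

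The sensors were higher in edited organoids. Aco1 encodes a cytosolic aconitase that becomes iron regulatory protein 1 when it loses its iron-sulfur cluster (chr4:40143081-40198338, plus strand). It had 94.0, 101 and 94.6 CPM in libraries labelled PCN, 75.4, 83.0 and 81.3 CPM in PN, and 60.9, 60.8 and 63.9 CPM in WT, with no overlap between any groups. The log2 fold change was 0.38 (SE 0.07) in PN against WT, 0.64 (SE 0.08) in PCN against WT and 0.27 (SE 0.06) in PCN against PN. Ireb2 encodes iron regulatory protein 2, which is degraded when iron is plentiful (chr9:54863789-54912530, plus strand). It had 102, 97.7 and 91.6 CPM in libraries labelled PCN, 95.9, 100.1 and 106 CPM in PN, and 74.6, 81.0 and 84.0 CPM in WT. PCN and PN overlapped and both lay above WT, with log2 fold changes of 0.35 (SE 0.08) in PN against WT, 0.29 (SE 0.08) in PCN against WT and -0.06 (SE 0.06) in PCN against PN. On the FPKM scale the ratio of Ireb2 to Aco1 was 0.478 ± 0.0319 in libraries labelled PCN, 0.599 ± 0.0249 in PN and 0.612 ± 0.0273 in WT (SD, n = 3 each), and PN and WT overlapped.

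Ranked by FPKM, Fth1 led in every group, at 1353, 1517 and 2603 in PCN, PN and WT, followed by Ftl1 at 461, 649 and 615. Tfrc came next where it has values, at 33.0 ± 1.69 labelled PCN and 41.5 ± 1.56 in PN. Aco1 followed at 21.5 ± 0.830, 17.8 ± 0.885 and 13.8 ± 0.397 in PCN, PN and WT. Heph held the next place in the edited groups, at 10.7 ± 0.356 FPKM labelled PCN and 16.8 ± 0.795 in PN, within the spread of Ireb2 in PCN and of Aco1 in PN. In WT it was at 0.291 ± 0.0473 FPKM, below Steap1 and Steap2. Steap1 averaged 4.68, 9.49 and 2.16 FPKM and Steap2 2.70, 4.66 and 2.92 FPKM in PCN, PN and WT, and the ranges of these genes overlapped in WT. Relative to Fth1, Heph stood at 0.792% ± 0.0322 labelled PCN, 1.11% ± 0.0326 in PN and 0.0114% ± 0.00334 in WT. Near the low end were Steap4, at 2.08 ± 0.220, 0.113 ± 0.0654 and 0.0357 ± 0.0329 FPKM, and Lcn2, at 1.59 ± 0.746, 0.252 ± 0.0290 and 0.0253 ± 0.0437 FPKM in PCN, PN and WT. These 2 neighbours in the order overlapped in libraries labelled PCN and in WT. Steap3 was the lowest member where it has values, at 0.262 ± 0.0583 FPKM labelled PCN and 0.0784 ± 0.0283 in PN, where it overlapped Steap4.

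Around the members, the wider iron genes showed no common direction. Of 97 genes in 7 iron lists, the authors listed 21 as higher and 18 as lower in PN against WT, 18 and 21 in PCN against WT, and 13 and 20 in PCN against PN. These are 40.2%, 40.2% and 34.0% of the lists, beside 38.1%, 38.6% and 24.5% of all genes tested. The list shares divide by all 97 matched genes, of which 57 have values. Whether the authors tested the rest is not known here, so these shares are not strictly alike, here or for the lists below. The median log2 fold change of the listed iron genes was 0.30, -0.29 and -0.20, beside -0.27, -0.28 and 0.16 over all listed genes. The lists contain the members themselves. Over all genes tested, 18.2% were listed as higher and 19.9% as lower in PN against WT, and 18.4% and 20.2% in PCN against WT. In PCN against PN these shares were 12.6% and 11.8%. They stand beside the counts of each list given below.

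Among uptake and reduction genes, 3 of 13 were higher and 1 lower in PN against WT and in PCN against WT alike, and 4 were higher and 4 lower in PCN against PN. Slc11a2, which encodes the divalent metal transporter DMT1, averaged 51.1 ± 1.46 CPM in libraries labelled PCN, 44.2 ± 1.51 in PN and 33.7 ± 2.76 in WT (SD, n = 3 each) and was listed as higher in all 3 comparisons. Cyb561a3, a lysosomal ferrireductase, was listed as lower in both edited groups against WT, at 8.92 ± 0.631, 8.07 ± 1.01 and 12.5 ± 1.75 CPM. Of 6 storage and chaperone genes none was listed as higher against WT, and 2 were lower in PN and 3 in organoids labelled PCN. Beside the ferritins, Ncoa4, the receptor that delivers ferritin to autophagosomes, was lower in both edited groups, at 74.6 ± 3.8 CPM labelled PCN, 59.6 ± 0.924 in PN and 103 ± 7.87 in WT.

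Of 5 export genes and ferroxidases, Heph was the 1 listed in PN against WT and in PCN against WT. Of 8 extracellular carriers and their receptors, 4 were higher and none lower in PCN against PN, Lcn2 among them. Ltf, which encodes the iron-binding defence protein lactotransferrin, ran against Lcn2 relative to WT, with 28.7 ± 5.82 CPM labelled PCN, 11.0 ± 1.56 in PN and 136 ± 15.1 in WT (SD, n = 3 each). Lrp1, a receptor for heme bound to hemopexin among other ligands, averaged 212 ± 27.1 CPM labelled PCN, 91.7 ± 11.6 in PN and 281 ± 65.0 in WT. In the sensing list of 9 genes, Bmp6, a ligand that induces hepcidin in liver, was listed as lower in both edited groups, at 0.541 ± 0.307 CPM labelled PCN, 0.599 ± 0.260 in PN and 9.17 ± 2.37 in WT. Neo1, which encodes neogenin, a partner of hemojuvelin, was higher in organoids labelled PCN than in both others, at 121 ± 5.67, 67.2 ± 1.37 and 69.2 ± 7.97 CPM in PCN, PN and WT.

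Of 23 genes of heme handling, 7 were lower and none higher in PCN against PN, beside 11.8% of all genes lower. Against WT, 5 were higher and 6 lower in PN, and 4 higher and 8 lower in organoids labelled PCN. Hmox1, the inducible heme oxygenase that releases iron from heme, averaged 24.9 ± 1.82 CPM labelled PCN, 33.5 ± 2.19 in PN and 56.2 ± 6.28 in WT (SD, n = 3 each), with no overlap between groups. Blvrb, which reduces biliverdin and flavins, averaged 46.6 ± 4.44, 61.9 ± 2.41 and 184 ± 6.10 CPM in PCN, PN and WT. Alad, an early enzyme of heme synthesis, averaged 48.3 ± 3.24, 44.9 ± 1.49 and 88.9 ± 2.83 CPM. Abcg2, an exporter of porphyrins and drugs, ran the other way at 2.86 ± 0.609, 1.78 ± 0.830 and 0.558 ± 0.203 CPM.

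Of 33 genes of mitochondrial iron and iron-sulfur clusters, 9 were higher and 6 lower in PN against WT, 6 and 6 in PCN against WT, and 1 and 5 in PCN against PN. Slc25a37, which encodes the mitochondrial iron importer mitoferrin-1, averaged 76.2 ± 1.79 CPM labelled PCN, 65.1 ± 1.76 in PN and 114 ± 7.95 in WT (SD, n = 3 each). Isca2, an assembly factor for iron-sulfur clusters, averaged 9.51 ± 0.899, 14.4 ± 1.40 and 19.9 ± 2.32 CPM in PCN, PN and WT. The cytosolic assembly genes Ndor1 and Nubp2 were higher than WT in both edited groups, Ndor1 at 11.7 ± 1.85, 11.7 ± 0.806 and 6.01 ± 0.237 CPM and Nubp2 at 45.4 ± 1.92, 43.6 ± 2.65 and 27.1 ± 2.82 CPM.

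Hephaestin carries copper, and of 13 copper handling genes 1 was higher and 5 lower in PN against WT, 1 and 7 in PCN against WT, and 1 and 3 in PCN against PN. The copper exporter Atp7b averaged 1.05 ± 0.454 CPM labelled PCN, 1.61 ± 0.386 in PN and 4.03 ± 1.26 in WT (SD, n = 3 each). The copper chaperone Cox17 averaged 2.13 ± 0.600, 2.14 ± 0.700 and 4.98 ± 0.265 CPM in PCN, PN and WT, and Slc31a2, a relative of the copper importer, 18.2 ± 0.553, 13.4 ± 1.5 and 34.0 ± 3.89 CPM. The metallothionein Mt3 was the gene listed as higher against WT, with 182 ± 33.2 CPM labelled PCN, 416 ± 67.1 in PN and 89.6 ± 19.5 in WT, the same order of groups as Steap1.

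Of 8 genes that protect against or permit iron-dependent lipid peroxidation, 4 were higher and 2 lower in PN against WT, 1 higher and none lower in PCN against WT, and 2 higher and 4 lower in PCN against PN. Acsl4, which loads membranes with polyunsaturated lipids, averaged 144 ± 4.61 CPM labelled PCN, 187 ± 8.36 in PN and 141 ± 17.1 in WT (SD, n = 3 each). Gch1, which makes the antioxidant tetrahydrobiopterin, was lowest in PN, at 19.5 ± 0.931, 9.10 ± 1.38 and 20.2 ± 1.91 CPM in PCN, PN and WT. Dhodh, a mitochondrial enzyme that reduces ubiquinone, averaged 21.7 ± 1.61, 19.9 ± 1.82 and 12.9 ± 1.12 CPM. Gpx4, the peroxidase that repairs lipid peroxides, has values in PN and WT alone, 128 ± 0.982 and 159 ± 13.6 CPM, and was lower in PN.

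**Figure D5:**
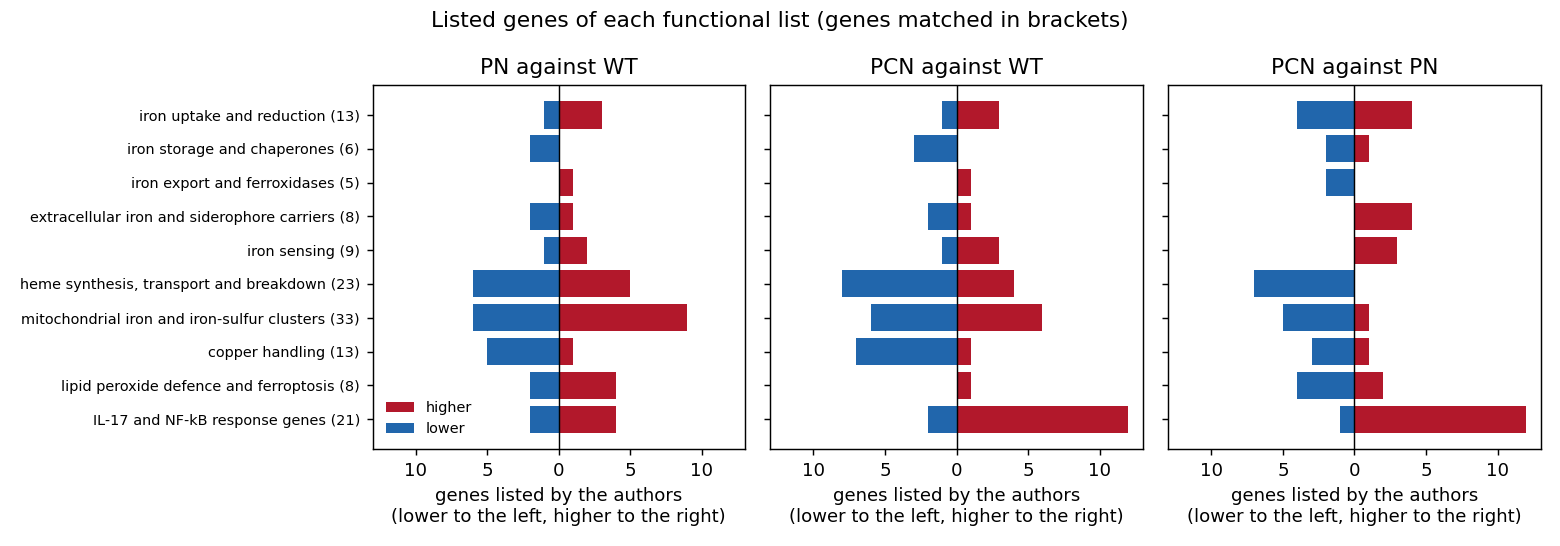
Number of genes listed by the authors in each functional list (rows, with the genes of the list in brackets), higher to the right and lower to the left, in 3 panels: PN against WT, then PCN against WT, then PCN against PN. In PCN against PN the IL-17 and NF-kB list reaches 12 higher and 1 lower, while the heme list has 7 lower and none higher.

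Steap4 and Lcn2 are known targets of IL-17 and NF-kB signalling. A list of 21 other genes of that signalling, receptors and response genes alike, was set beside them. In PCN against PN, 12 were higher and 1 lower, which is 61.9% of the list, beside 24.5% of all genes tested. In PCN against WT, 12 were higher and 2 lower, 66.7% beside 38.6%, and in PN against WT, 4 were higher and 2 lower, 28.6% beside 38.1%. The median log2 fold change of those listed was 0.98 in PCN against PN, 0.85 in PCN against WT and 0.52 in PN against WT. The list was put together with earlier results of these data known, so these shares are a description. Whether this signalling has a part in the levels of Steap4 and Lcn2 was not tested. Ccl20, a chemokine for lymphocytes and dendritic cells, averaged 3.63 ± 0.493 CPM labelled PCN, 0.682 ± 0.264 in PN and 0.0674 ± 0.0681 in WT (SD, n = 3 each). The neutrophil chemokine Cxcl1 averaged 27.3 ± 0.246, 13.9 ± 1.03 and 1.47 ± 0.919 CPM in PCN, PN and WT, and its relative Cxcl5 2.80 ± 0.490, 0.850 ± 0.501 and 0.491 ± 0.165 CPM. Birc3, an inhibitor of apoptosis induced by NF-kB, averaged 8.45 ± 1.51, 2.70 ± 0.628 and 2.55 ± 0.323 CPM, the pattern of Steap4 with PN and WT overlapping. The genes listed as lower, named after their values were seen, went another way. S100a9 and Slpi were lower against WT in both edited groups. S100a9 averaged 6.41 ± 2.16, 8.52 ± 1.14 and 14.6 ± 2.03 CPM, and Slpi 68.0 ± 10.7, 43.7 ± 3.09 and 106 ± 24.5 CPM in PCN, PN and WT. Il17rc, which encodes a receptor subunit, was the gene lower in PCN against PN, at 110 ± 7.89 and 125 ± 9.65 CPM.

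The genes whose profile over the 9 libraries lay nearest to each of the 3 leading members were found by the Euclidean distance between centred log2 values of CPM + 0.5, among 6294 genes. For Heph these were Spsb4 at 1.79, Dab1 at 2.13, Wif1 at 2.49, Rnf150 at 2.66 and Krt79 at 2.87, against a median distance of 7.71. Spsb4 averaged 11.2 ± 1.28 CPM labelled PCN, 11.3 ± 0.396 in PN and 0.178 ± 0.137 in WT (SD, n = 3 each). Wif1, a secreted Wnt inhibitor, was higher in PN than in organoids labelled PCN like Heph, at 3.69 ± 0.276 CPM labelled PCN and 19.4 ± 1.23 in PN, with no counts in WT.

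For Steap4 the nearest profiles were Fgf13 at 0.811, Kcnh1 at 0.966, Slc1a3 at 0.974, H19 at 1.04 and Siah3 at 1.08, against a median of 4.85. The imprinted noncoding RNA H19 averaged 27.7 ± 2.05 CPM labelled PCN, 1.69 ± 0.230 in PN and 1.47 ± 0.459 in WT (SD, n = 3 each). For Lcn2 they were Ccl2 at 1.03, Pde4b at 1.1, Slc1a3 at 1.12, Flrt1 at 1.14 and Emb at 1.16, against a median of 3.95. Ccl2, a monocyte chemokine, averaged 3.36 ± 0.390 CPM labelled PCN, 0.961 ± 0.141 in PN and 0.200 ± 0.0645 in WT. Slc1a3, a glutamate transporter, stood near both, at 4.99 ± 0.913, 0.397 ± 0.0360 and 0.134 ± 0.0687 CPM in PCN, PN and WT. The distance from Steap4 to Lcn2 itself was 1.82, and from Heph to either it was 6.52 for Steap4 and 5.60 for Lcn2.

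Within 1 Mb of Heph, 5 listed genes have values, and 3 were higher and 1 lower in PN against WT. The closest on the far side, Gpr165, averaged 0.517 ± 0.172 CPM in PN, and Msn, an abundant linker of membrane and actin 286807 bases before Heph, averaged 314 ± 12.2 CPM labelled PCN and 271 ± 8.58 in PN (SD, n = 3 each). Around Steap4 there were 5 listed neighbours, of which 1 was higher and 1 lower in PCN against PN, and around Lcn2 there were 26, of which 3 were higher and 7 lower in PCN against PN. Of all 8742 genes listed in at least 1 comparison, 3131 were higher and 3413 lower in PN against WT. In PCN against PN, 1866 were higher and 1743 lower. Neighbours were counted only if listed somewhere, so nothing is read from these counts. The nearest with values around Steap4, Sri, 63865 bases away, averaged 44.2 ± 2.21 CPM labelled PCN and 42.8 ± 4.13 in PN.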

How the data were processed

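Raw counts per gene and library stand as the authors deposited them, in 1 table per pair of groups that holds only genes with the authors' adjusted p under 0.05. The authors also computed FPKM, per the file headers, and a normalized signal, which the deposited values show to be counts over 1 size factor for each library. Each table carries the authors' log2 fold change and p-value, per the file headers. CASAVA, DESeq and GRCm38 (mm10) are named in the submitters' processing notes. For the aligner, counter, strand setting and annotation, the entry is: not given in the sources used here.

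Library totals were recovered from counts, FPKM and gene lengths, and CPM is the count over that total. The number of genes tested was recovered from the adjusted p-values. Each table was fitted by the quasi-likelihood method of edgeR 4.0.16 under R 4.3.3 (filterByExpr, prior count 0.125), offset by totals and deposited size factors. The SE is the log2 fold change, taken as positive, divided by the root of the F statistic. A member outside a table but with counts in all 9 libraries was fitted in a separate run. That run held the listed genes and every gene with counts in all 9 libraries. The fits were tested on simulated data in which most genes were unchanged, unlike the listed genes. Changes were simulated only in genes above a low count, so that test does not cover groups near 0 counts. Ratios of summed counts carry exact 95% counting intervals, and a group at 0 is set to 3 counts. DESeq2 1.42.0 was an alternative. Replicate numbers come from the titles. The labels do not say whether same-numbered libraries belong together. Their deviations correlated at 0.29, 0.13 and 0.31 in PN against WT, which does not establish pairing. A fit with the replicate number as a block is given with the alternatives.

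Members and lists were chosen with earlier results of these data known. Further genes named are, per list, up to 4 with the largest mean change against WT at 1 CPM or more, the 5 nearest profiles, and neighbours within 1 Mb. Of the 103 symbols in the iron lists, 97 matched a gene of the annotation.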

Additional observations from a re-analysis of the deposited data

Results flagged for a closer look

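The libraries of Ftl1 lay on opposite sides of WT in the edited groups, although the authors listed only PCN against WT and not PN against WT. Its log2 fold change was -0.41 in PCN against WT, with every library labelled PCN below every WT library, and 0.09 (SE 0.06) in PN against WT, with every PN library above every WT library. The difference between these 2 effects was not tested here, and both use the same WT libraries. The authors' table of PCN against PN gives the direct comparison, a deposited log2 fold change of -0.50.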

How the results depend on the processing

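None of the 395 alternative values of the 29 member fold changes reversed direction, and all of them reuse the same libraries. For members other than Heph, Steap4 and Lcn2, 12 alternatives moved by more than the replicate spread and 265 did not. For Heph, Steap4, Lcn2 and the numbers of iron genes listed, 20 moved and 131 did not, the numbers of genes being judged by their ratio. On the scale of log2(mean FPKM + 1), which shrinks low genes, Heph gave 3.78 in PN against WT and 3.18 in PCN against WT. Steap4 gave 0.10, 1.57 and 1.47, and Lcn2 0.29, 1.34 and 1.05, in PN against WT, in PCN against WT and in PCN against PN. A prior count of 2 gave 4.86 for Steap4 and 4.54 for Lcn2 in PCN against WT. Leaving out each library in turn gave, in the same order of comparisons, 5.78 to 5.99, 5.13 to 5.34 and -0.68 to -0.61 for Heph, 1.1 to 2.44, 5.23 to 6.48 and 3.77 to 4.44 for Steap4, and 2.71 to 3.38, 5.40 to 6.20 and 2.19 to 2.86 for Lcn2, where a WT group at 0 is a bound. Of the 39, 39 and 33 iron genes listed, 8, 10 and 9 changed at least 2-fold, and refits without 1 library called 32 to 38, 35 to 38 and 30 to 31. DESeq2, with size factors from the genes in each run alone, moved the members by a median of 0.13, 0.16 and -0.05 on the log2 scale. Under it 21 iron genes were called higher and 12 lower in PN against WT, against 20 and 18 with edgeR.

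With the replicate block, Heph was at 5.85, 5.20 and -0.65 and the iron genes called numbered 38, 37 and 30, beside 38, 38 and 31 without it, counts that do not say which genes. Steap4 was at 5.80 and 4.16 and Lcn2 at 5.79 and 2.60 in PCN against WT and PCN against PN. In PN against WT both lay below the low-count filter and were not fitted with the block. In PCN against WT the same-numbered libraries correlated at -0.21, -0.12 and -0.34, and in PCN against PN at -0.13, -0.13 and -0.19. The labels give no pairing in any comparison. Few WT counts limit Steap4 and Lcn2, unlisted genes have no level, and a refit of genes selected on these libraries is not independent evidence.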
